A study of Mus musculus with 6 samples.

Results

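Type VI collagen and the fibril-associated collagens are the chains that lie beside or on collagen fibrils rather than forming them. They were followed here after raised miR-29 in cultured mouse astrocytes. A probe belonged to the set if its transcript accession maps to 1 of 9 listed genes. Probes were found for 7 of them (Col6a1, Col6a2, Col9a1, Col9a2, Col9a3, Col14a1 and Col16a1), among 18353 genes with a named probe, and these 7 genes have 9 probes. No probe accession matched Col6a3 or Col12a1 in the reference table used, so these 2 genes are not analysed here.

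The cells were primary astrocytes from the cerebral cortex of C57BL/6 mice at embryonic day 18, bought as a prepared culture. In the miR-29 group they received, 3 weeks after plating, precursors of the a, b and c forms of miR-29 mixed 1:2:1. In the control group they received a negative control precursor. Both groups were transfected at 80 nM (as the protocol words it, of each) with the same lipid reagent and harvested after 48 h, and the protocol gives a transfection efficiency above 90%. Each group has 3 one-colour Agilent arrays of separate RNA extractions. Whether the extractions came from separate cultures is not stated, and the p-values therefore cover the spread between extractions alone, which may be technical. The sources used here do not give the number of animals behind the culture.

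Type VI collagen is built from 3 different chains, which assemble into tetramers inside the cell and then into beaded microfilaments close to basement membranes and cell surfaces. In the fibril-associated collagens, short triple helices alternate with non-helical segments, and most of these molecules sit on the surface of fibrils made by other collagens. Type IX, also a molecule of 3 different chains, decorates type II fibrils in cartilage and the vitreous, and types XII and XIV bind type I fibrils. In the brain, type VI collagen is best known from the meninges and vessel walls. MicroRNAs lower messenger RNAs that carry sites pairing with their seed, bases 2 to 8 from the 5′ end, and fibril-forming collagen messages are textbook targets of miR-29.

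The 3 mature mouse sequences of the transfected family are shown because they have the seed in common. They are credited to RefSeq, build GRCm38.p6, are written 5′ to 3′, and have the seed in capitals.
miR-29a: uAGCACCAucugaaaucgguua
miR-29b: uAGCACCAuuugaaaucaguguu
miR-29c: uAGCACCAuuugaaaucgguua
All 3 share 1 seed. Counting from 1 at the 5′ end over the 22 aligned positions, miR-29c differs from miR-29a by C10U alone, and miR-29b differs from miR-29a by C10U, G18A, U21G and A22U. The miR-29a gene lies on chromosome 6 (GRCm38.p6, chr6:31062673-31062694, minus strand) and the miR-29c gene on chromosome 1 (chr1:195037600-195037621, plus strand). miR-29b is encoded on both chromosomes. The precursors used carry the human names of these microRNAs.

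Each array had 61.9% to 66.8% of its 41174 non-control probes well above background, and 0 spots were saturated. Levels below are multiples of the 75th percentile of the array, which was a processed signal of 474 to 626. Across probes, correlations were 0.994 to 0.998 within a group and 0.974 to 0.984 between the groups. The 3 miR-29 arrays shared slide 1 with control replicate 1, whereas the other control replicates were on slide 2. All 11 astrocyte markers listed were above background on every array, Gfap, Slc1a3 and Aldh1l1 among them. In bulk RNA, fewer cells of a type and less RNA per cell cannot be told apart.

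Of the 7 tested probes, 1 per gene, 6 fell, 0 rose and 1 did not pass the test (limma, Benjamini-Hochberg adjusted p under 0.05 over all 26428 tested probes). Their median log2 fold change, miR-29 minus control, was -0.83, against 0.061 for all tested probes. Among all tested probes 23.5% were lower, 34% were higher and so 57.5% passed in either direction. These shares moved with the scaling. When the 6 spike-in types detected on every array set the scale, the median of all probes shifted by -0.24, and 10163 probes were lower and 3947 higher (28% of the called probes higher, against 59.2% in the main scaling). The same 6 collagen genes were lower there. The other probes of Col14a1 and Col16a1 did not pass the filter for brightness and were not tested.

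**Figure D1:**
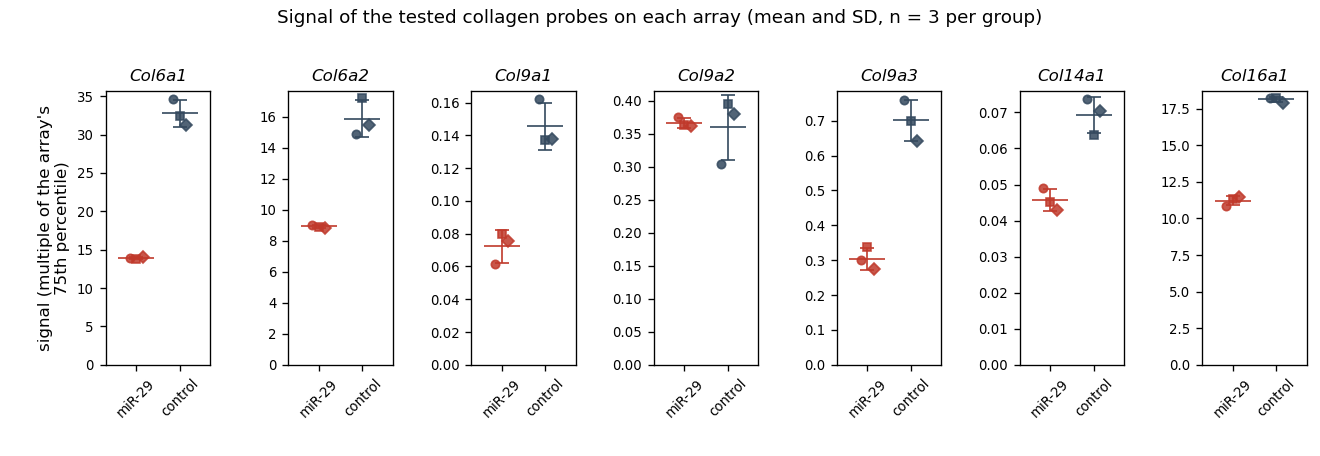
Signal of each tested collagen probe on every array, as a multiple of the 75th percentile of the array, on linear axes that start at 0 (circle, replicate 1; square, replicate 2; diamond, replicate 3; bar and whiskers, mean and SD, n = 3 per group). For all genes but Col9a2 the 3 miR-29 arrays lie below the 3 control arrays.

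Both type VI chains measured fell. Col6a1, which encodes the alpha 1 chain, had 14.0, 13.7 and 14.0 times the 75th percentile in the miR-29 arrays (replicates 1 to 3), against 34.6, 32.5 and 31.2 in the control arrays. The groups were far apart and did not overlap. Col6a1 averaged 13.9 ± 0.15 in the miR-29 group and 32.8 ± 1.72 in the control group (SD, n = 3 each), and fell by 1.23 on the log2 scale (SE 0.0561, limma adjusted p = 4.21e-05), to 42.5% of control. Within slide 1, where 3 miR-29 arrays stand against 1 control array assumed to vary like the others, Col6a1 fell by 1.32 (adjusted p = 0.00291).

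Col6a2, which encodes the alpha 2 chain, had 9.05, 8.91 and 8.83 times the 75th percentile in the miR-29 arrays, against 14.9, 17.2 and 15.5 in the control arrays. The groups did not overlap, and the control arrays spread more widely than the miR-29 arrays. Its mean was 8.93 ± 0.113 in the miR-29 group and 15.9 ± 1.20 in the control group (SD, n = 3 each). It fell by 0.83 on the log2 scale (SE 0.0667, limma adjusted p = 0.000202), to 56.3% of control, and by 0.74 within slide 1 (adjusted p = 0.0041).

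The log2 fold change of Col6a1 lay 0.41 below that of Col6a2. The per-array difference between the log2 levels of the chains was 0.62 to 0.67 in the miR-29 arrays and 0.91 to 1.21 in the control arrays, without overlap. An exact two-sided permutation test over the 6 arrays gave p = 0.1, the smallest p that 3 arrays against 3 allow, and adjusted p = 0.133 over the 4 chain pairs that could be compared without Col6a3. The 2 genes are neighbours on chromosome 10 with 0 protein-coding and 2 other annotated genes between them. Their levels across the 6 arrays had a Pearson correlation of 0.982, a description that rests mainly on the difference between the groups.

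The promoter windows of Col6a1 and Col6a2 are shown because these neighbouring genes changed together. They run from 250 bases before to 50 bases after the annotated start (RefSeq, GRCm38.p6), are written 5′ to 3′ on the strand of the gene, and have matches to CCTCCC or its reverse complement GGGAGG in capitals.
Col6a1, chr10:76725995-76726294, minus strand: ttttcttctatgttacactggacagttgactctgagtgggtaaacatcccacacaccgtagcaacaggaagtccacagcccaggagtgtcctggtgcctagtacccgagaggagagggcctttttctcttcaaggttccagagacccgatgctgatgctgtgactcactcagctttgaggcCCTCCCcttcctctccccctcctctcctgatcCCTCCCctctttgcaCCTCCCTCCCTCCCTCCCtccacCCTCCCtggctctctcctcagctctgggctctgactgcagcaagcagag
Col6a2, chr10:76623355-76623654, minus strand: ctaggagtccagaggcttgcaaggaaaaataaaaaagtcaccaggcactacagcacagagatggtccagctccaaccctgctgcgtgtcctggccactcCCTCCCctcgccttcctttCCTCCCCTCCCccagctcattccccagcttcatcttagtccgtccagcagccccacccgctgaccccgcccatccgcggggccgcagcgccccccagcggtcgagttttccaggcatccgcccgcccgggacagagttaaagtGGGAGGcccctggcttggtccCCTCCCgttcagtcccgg
With overlapping matches counted, the Col6a1 window held CCTCCC 7 times and the Col6a2 window held it 4 times, with 1 GGGAGG. Of all 32851 promoter windows in the table, 42.4% held the motif on either strand. GGGCGG, searched on both strands, was not in the Col6a1 window and was found 3 times in the Col6a2 window as CCGCCC, against 35.7% of all windows with at least 1 match. TATAAA, which 13.6% of all windows held on either strand, was in neither. The motif CCTCCC was chosen after the windows were read. A match is a description of the letters and not of a factor bound there. A further window of Col6a2, which overlaps the one shown and is not printed, held CCTCCC 0 times and GGGAGG 1 time. The count for Col6a2 therefore depends on the annotated start. Of the other members with a window, Col9a2 held CCTCCC 1 time and Col6a3 held GGGAGG 2 times. For Col9a1, 1 window held CCTCCC 2 times and another held neither. The window of Col16a1 held neither.

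Of the type IX chains, Col9a1 and Col9a3 fell and Col9a2 did not pass the test. Col9a3, the alpha 3 chain, had 0.300, 0.338 and 0.274 times the 75th percentile in the miR-29 arrays, against 0.760, 0.701 and 0.641 in the control arrays. Every miR-29 array lay well below every control array. Col9a3 fell by 1.21 on the log2 scale (SE 0.10, limma adjusted p = 0.000227, n = 3 per group), to 43.3% of control, and by 1.33 against the control array of slide 1 (SE 0.135, adjusted p = 0.00526).

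Col9a1, the alpha 1 chain, had a signal not far above background, at 0.0612, 0.0801 and 0.0755 times the 75th percentile in the miR-29 arrays, against 0.162, 0.137 and 0.138 in the control arrays. The groups did not overlap, and the probe was well above background on all 6 arrays, where the lowest signal so classed was 0.0167 to 0.0210 of the 75th percentile. Col9a1 fell by 1.02 on the log2 scale (SE 0.122, limma adjusted p = 0.000886), to 49.5% of control, and by 1.17 within slide 1 (adjusted p = 0.0112). The size depended on the background correction: with normexp, a model-based correction with an added offset that compresses weak signals, it fell by 0.43 (SE 0.0754, adjusted p = 0.00227).

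Col9a2, the alpha 2 chain, had 0.375, 0.363 and 0.361 times the 75th percentile in the miR-29 arrays, against 0.304, 0.396 and 0.381 in the control arrays. The miR-29 arrays lay between the lowest and the highest control array. Its log2 fold change was 0.035 (SE 0.106, 95% interval -0.22 to 0.29, limma adjusted p = 0.79). The control array on slide 1 was the low one. Against that array alone Col9a2 was higher by 0.27, while without it the log2 fold change was -0.083 (limma adjusted p = 0.181). The SD of the log2 level was 0.029 in the miR-29 arrays and 0.206 in the control arrays. A fit with 1 control array cannot measure the spread between control arrays, so only its size is given. The sign also differed with spike-in scaling (-0.20, adjusted p = 0.219), so the data give no direction for this chain.

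The log2 fold change of Col9a2 exceeded that of Col9a3 by 1.24, and that of Col9a1 lay 1.05 below that of Col9a2. In both pairs the per-array differences of the miR-29 arrays did not overlap those of the control arrays (exact permutation p = 0.1, adjusted p = 0.133 over 4 pairs, at the smallest p that the design allows). Col9a1 and Col9a3 differed from each other by 0.19, and their per-array differences overlapped (exact permutation p = 0.3, adjusted p = 0.3). This p does not show that they moved alike. A factor per array cancels in these differences, but the background correction does not. With normexp, Col9a1 and Col9a3 differed by 0.50 without overlap (exact permutation p = 0.1), and Col9a1 lay 0.46 rather than 1.05 below Col9a2. With 1 array left out, the difference between Col9a1 and Col9a3 ranged from 0.083 to 0.30.

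**Figure D2:**
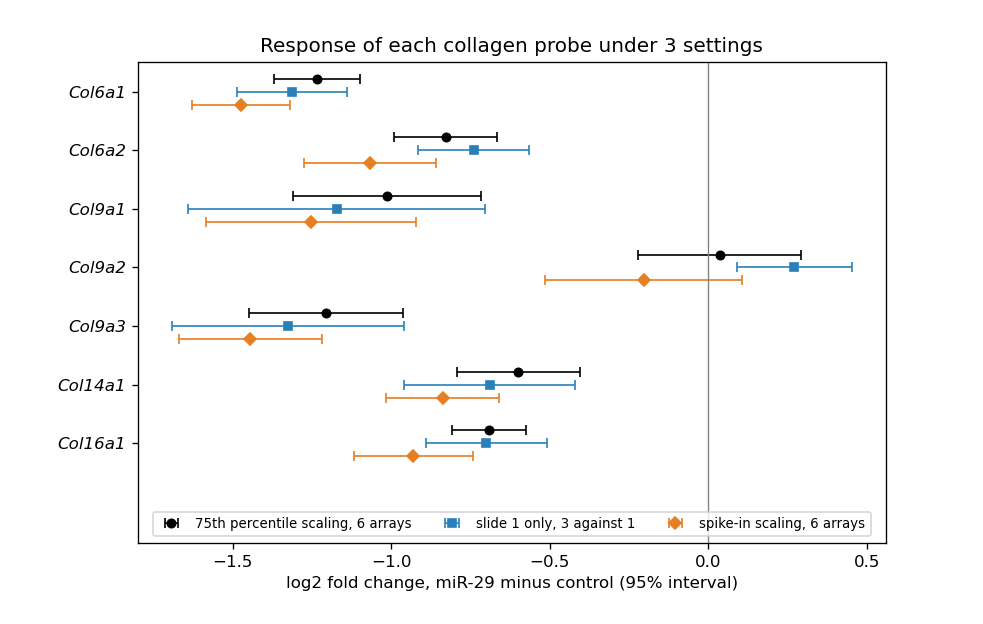
Log2 fold change, miR-29 minus control, of each tested collagen probe with its 95% interval, for all 6 arrays with 75th percentile scaling, for slide 1 with 3 miR-29 arrays and 1 control array, and for all 6 arrays with the detected spike-in types as scale. The intervals of all genes but Col9a2 lie below 0 in each setting, and the interval of Col9a2 spans 0 except on slide 1.

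Col14a1 and Col16a1, the chains of fibril-associated types XIV and XVI, each form molecules of 1 kind of chain. The tested probe of Col16a1 stood at 10.9, 11.3 and 11.5 times the 75th percentile in the miR-29 arrays, against 18.2, 18.3 and 17.9 in the control arrays. These values had little spread within a group and no overlap. Col16a1 fell by 0.69 on the log2 scale (SE 0.0478, limma adjusted p = 0.000122), to 61.9% of control, and by 0.70 within slide 1 (SE 0.0708, adjusted p = 0.00522). Its other probe was well above background on 1 miR-29 array and 0 control arrays, at 0.0178, 0.0220 and 0.0185 times the 75th percentile in the miR-29 arrays, against 0.0159, 0.00701 and 0.0115 in the control arrays, with the miR-29 arrays higher, near the limit of detection.

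The tested probe of Col14a1 stood not far above background, at 0.0491, 0.0450 and 0.0430 times the 75th percentile in the miR-29 arrays, against 0.0737, 0.0638 and 0.0704 in the control arrays. The groups did not overlap and the probe was well above background on all 6 arrays. It fell by 0.60 on the log2 scale (SE 0.0796, limma adjusted p = 0.0013), to 66% of control, and by 0.69 within slide 1 (adjusted p = 0.0106), but the call was lost with normexp (-0.23, adjusted p = 0.0617). Its other probe was well above background on 0 arrays.

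Taking the set by size, the falls ran from Col6a1 (-1.23) and Col9a3 (-1.21) through Col9a1 (-1.02) and Col6a2 (-0.83) to Col16a1 (-0.69) and Col14a1 (-0.60). The 95% intervals of neighbours in this order overlapped. The share of all tested probes with a log2 fold change as low or lower was 2.18% for Col6a1, 2.31% for Col9a3, 3.72% for Col9a1, 5.95% for Col6a2, 8.4% for Col16a1 and 10.7% for Col14a1. A fall of at least 1 that passed the test was found for 3.57% of all tested probes, and for 3 of the 7 collagen probes. Non-overlapping groups with lower miR-29 arrays were found for 27.2% of all tested probes and for 6 of the 7.

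**Figure D3:**
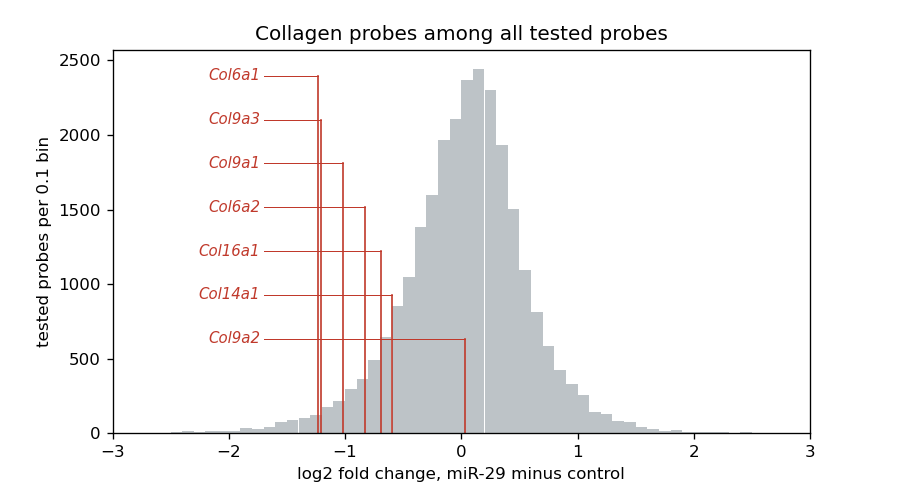
Number of tested probes (26428 in all) per bin of 0.1 in log2 fold change, miR-29 minus control, with the tested collagen probes marked by lines. All collagen probes but Col9a2 lie in the lower flank of the distribution, from -1.23 to -0.60, and Col9a2 lies near its centre at 0.035; probes beyond 3 in either direction are not drawn.

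Of 6 related chains of the same families listed (Col6a4, Col6a5, Col6a6, Col19a1, Col20a1 and Col22a1), 3 were tested, of which 1 fell. Among all genes with a symbol, by their brightest probe, 25.3% were lower, so this count says little. Col20a1, a fibril-associated collagen, had 0.0926, 0.0817 and 0.0687 times the 75th percentile in the miR-29 arrays, against 0.119, 0.109 and 0.106 in the control arrays. Its groups did not overlap, and it fell by 0.47 (SE 0.117, limma adjusted p = 0.0151), a call lost with normexp (-0.20, adjusted p = 0.0751) and within slide 1 (-0.57, adjusted p = 0.0711). Col22a1 had a log2 fold change of -0.25 (adjusted p = 0.162), but it passed as lower with the detected spike-in types (-0.49, adjusted p = 0.0431) and without control replicate 1 (-0.37, adjusted p = 0.0319), and stood at -0.0026 within slide 1. Col6a4, an alternative type VI chain, was at 0.057 (adjusted p = 0.752), and passed as higher within slide 1 (0.35, adjusted p = 0.0185). Probes of Col6a6 and Col19a1 were not well above background on any array, and the probe of Col6a5 on 1 miR-29 array only.

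Genes whose products bind these collagens, form the fibrils under them or cleave them were given as a list of 33. Of the 29 tested, 17 fell, 4 rose and 8 stayed short of the threshold, and their median log2 fold change was -0.72. Matn3 and Vwf passed the brightness filter through 1 group alone, the one in which each was higher, so their calls carry no weight. Of the 27 genes above background on all 6 arrays, 16 fell and 3 rose, with a median of -0.72. Among all 13716 genes with a symbol, by their brightest probe, 25.3% were lower and 36.5% higher, around a median of 0.060. The fibril-forming chains on the list were known to be lower in these data when it was drawn up, so its count is not independent evidence. Col1a2, a chain of the type I fibrils that carry types XII and XIV, had 56.2, 54.4 and 53.8 times the 75th percentile in the miR-29 arrays, against 280.3, 265 and 256 in the control arrays, and fell by 2.28 (SE 0.0553, limma adjusted p = 2.01e-05).

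Col2a1, the chain of the type II fibrils that type IX decorates, had 0.249, 0.276 and 0.229 times the 75th percentile in the miR-29 arrays, against 2.07, 5.67 and 4.99 in the control arrays. The control array of slide 1 was the dimmest of the control arrays, but all 3 were above the miR-29 arrays. The brightest probe of Col2a1 fell by 3.95 (SE 0.376) and its other probe by 1.17. Col3a1 fell by 3.56 (SE 0.0982) and Mmp2, a gelatinase that degrades collagens, by 2.64 (SE 0.0485).

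Of the cell surface proteins that bind type VI collagen, Cspg4, the NG2 proteoglycan, had 0.251, 0.251 and 0.228 times the 75th percentile in the miR-29 arrays, against 0.914, 0.748 and 0.760 in the control arrays. The groups did not overlap, and Cspg4 fell by 1.73 (SE 0.0942, limma adjusted p = 6.22e-05; -1.08 with its other probe). Antxr2, an anthrax toxin receptor that binds type VI collagen and takes it into cells, went the other way, with 4.56, 4.69 and 4.79 in the miR-29 arrays, against 2.98, 2.65 and 2.65 in the control arrays. It rose by 0.76 (SE 0.0646, limma adjusted p = 0.000241). The related receptor gene Antxr1, named after its value was seen, had a log2 fold change of 0.023 (adjusted p = 0.7).

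The other rises on the list were less firm. Vwf, which encodes a clotting factor that binds type VI collagen, had a log2 fold change of 0.83 (SE 0.173), which normexp reduced to 0.20. It was well above background on all 3 miR-29 arrays and on 2 of the 3 control arrays. Comp, a cartilage matrix protein that binds type IX collagen, rose by 0.27 (SE 0.0704, adjusted p = 0.0186), a call lost within slide 1 (0.14, adjusted p = 0.147). Bmp1, a procollagen protease, rose by 0.21 with its brightest probe (adjusted p = 0.0353), while that probe gave -0.032 with spike-in scaling and its other probe gave -1.20. Matn3, a cartilage matrix protein that binds type IX collagen, was not well above background on any miR-29 array and was at least 1.63-fold lower as measured, while normexp gave a log2 fold change of -0.085 (adjusted p = 0.583). That bound sets the mean of the control arrays against that of the miR-29 arrays with each raised to its lowest level well above background where the probe lay under it.

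**Figure D4:**
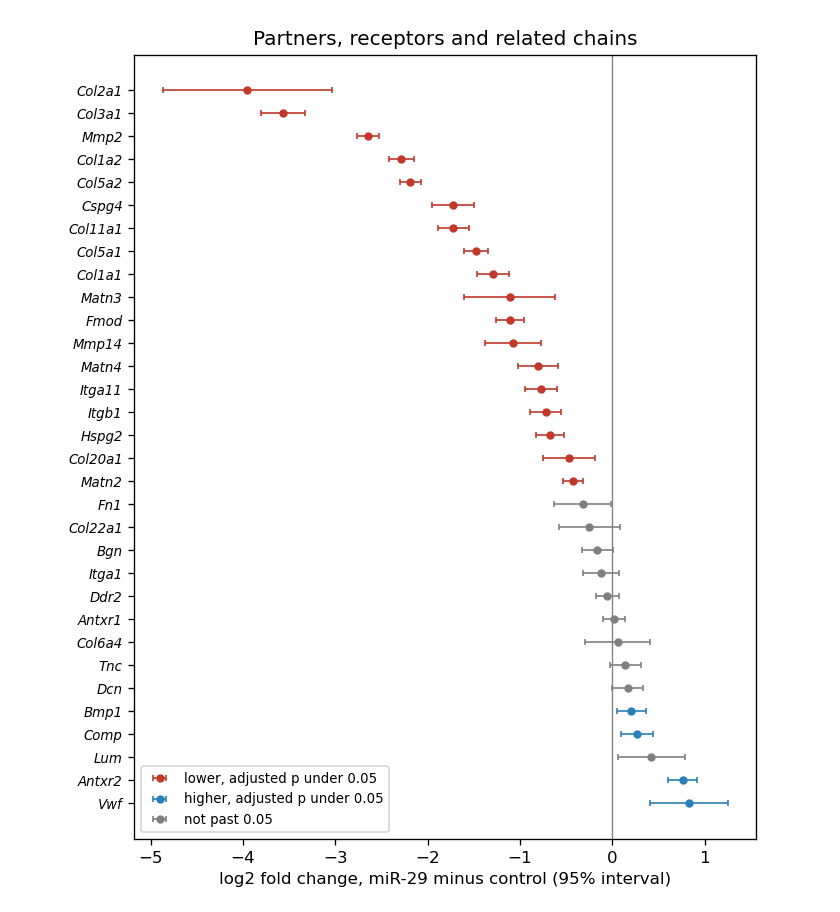
Log2 fold change, miR-29 minus control, with its 95% interval for the 32 tested partners, receptors and related chains, 1 probe per gene. The 18 genes lower at adjusted p under 0.05 run from Col2a1 at -3.95 to Matn2 at -0.42, and the 4 higher ones are Vwf, Antxr2, Comp and Bmp1; Matn3 and Vwf passed the brightness filter through 1 group alone.

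The genes most like the mean profile of Col6a1 and Col6a2 across the 6 arrays were Ogfr, a receptor for an opioid growth factor, Btg2, an antiproliferative gene, and Extl3, a glycosyltransferase of heparan sulfate synthesis (Pearson r of 0.9997, 0.9995 and 0.9995). With their brightest probes they fell by 0.84, 1.26 and 1.03, and as the mean of all tested probes by 0.83, 0.75 and 0.77. Among genes with a change of at least 1 on the log2 scale, the next was Arpc1b, a subunit of an actin-nucleating complex (r = 0.9993, a fall of 1.08). These values are descriptions over 6 arrays that share the group difference, and 15.3% of the 13342 genes compared had r above 0.95.

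Collagens of these types are also made by fibroblasts, meningeal and mural cells and, for type IX, by chondrocytes, so markers of these cells are given beside the results. The marker counts here and in the next paragraph stand beside 25.3% lower and 36.5% higher among all genes with a symbol, by their brightest probe. Of 16 fibroblast, meningeal and mural markers 12 were tested, of which 5 fell and 5 rose, and their mean log2 level, relative to the 75th percentile, was 1.75 to 1.85 in the miR-29 arrays and 1.63 to 1.69 in the control arrays. The contractile genes Myh11 and Cnn1 rose by 1.60 (0.54 with normexp) and 1.33. The other members of this list past the threshold are named here after their values were seen. S100a4 (-1.22), the mural cell receptor gene Pdgfrb (-0.68) and Fbln1 (-0.41) were lower. So were Pdgfra (-0.97, though 0.10 with its other probe) and Slc6a13 (-0.61, near the limit of detection). Aldh1a2 (0.80, not far above background), Tagln (0.67) and Acta2 (0.60) were higher. The pericyte markers Rgs5, Vtn, Abcc9 and Kcnj8 were well above background on 0 arrays. Of 6 chondrocyte markers 5 were tested, with Col2a1 and Matn3 lower and Sox9 (0.47) and Comp (0.27) higher. The call of Matn3 carries no weight, since it passed the brightness filter through the control group alone, where it was higher. Acan, named after its value was seen, had a log2 fold change of 0.032 (limma adjusted p = 0.926). The mean log2 level of the 5 was -1.41 to -1.32 in the miR-29 arrays and -0.78 to -0.35 in the control arrays. The drop in this mean comes from Col2a1, which fell by 3.95, and from Matn3, whose part carries no weight. Sox9, Comp and Acan were not lower. Of the 4 without Matn3, all above background on all 6 arrays, 1 fell and 2 rose, with a median log2 fold change of 0.15. Hapln1 was not above background on any array.

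Of the 11 astrocyte markers 7 rose, 1 fell and 3 stayed short of the threshold, at a mean log2 level of 1.85 to 2.04 in the miR-29 arrays and 1.40 to 1.47 in the control arrays. Slc1a3, a glutamate transporter, rose by 1.67 (SE 0.0874) and Fabp7, a fatty acid binding protein, by 1.30 (SE 0.0463). Of 8 tested oligodendrocyte lineage markers 3 fell and 4 rose (Cldn11 by -1.50, and -0.90 with normexp, beside Cspg4), of 7 neuron markers 2 fell and 3 rose (Elavl3 by 1.65 and Elavl4 by 1.37, but 0.45 and 0.55 with normexp), of 4 endothelial markers 1 fell and 2 rose (Flt1 by -0.37; 1 of the rises is that of Vwf), and of 3 microglia markers 2 fell and 1 rose (Csf1r by -1.40, though 0.36 with its other probe, and P2ry12 by 0.52). The calls of Csf1r and P2ry12 were not firm. Csf1r was -0.73 with the slide as a block (limma adjusted p = 0.167). P2ry12 was 0.087 with normexp (adjusted p = 0.437) and 0.28 with the detected spike-in types (adjusted p = 0.219). The remaining microglia call was that of Tmem119, named after its value was seen, which fell by 0.44 (SE 0.0712, limma adjusted p = 0.00276). It had 3.37, 3.43 and 3.20 times the 75th percentile in the miR-29 arrays, against 4.92, 4.47 and 4.23 in the control arrays. The microglia genes Aif1, Cx3cr1 and Ptprc, the endothelial gene Tek and the myelin gene Mog were not above background on any array. The mean log2 levels of the miR-29 and control arrays were -1.60 to -1.58 and -1.64 to -1.43 for the oligodendrocyte lineage, -2.28 to -2.07 and -2.58 to -2.37 for neurons, -2.93 to -2.82 and -3.16 to -3.06 for endothelium, and -2.48 to -2.05 and -2.13 to -1.71 for microglia. The part of these cells in the falls of the collagen genes was not tested.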

How the data were processed

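Each deposited array file holds spot intensity from Agilent Feature Extraction 10.7.3.1, per the file headers (10.7 in the submitters' processing notes), as a background-subtracted processed signal with flags for outliers and background. In the authors' value table that intensity is multiplied by 1 factor per array (2.63 to 3.43), linear and uncentred, by a rule that the sources do not state.

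From each log2 processed signal, the array's 75th percentile across non-control probes was subtracted, with outlier spots left out and spots of a probe averaged. Probes well above background on all 3 arrays of a group were tested (26428 of 41174). Probes were named by unversioned RefSeq accession (GRCm38.p6 table): 26933 matched 1 gene and 14241 none. Each probe was tested two-sided in limma 3.58.1 (R 4.3.3; lmFit, then eBayes), and p-values were adjusted by Benjamini-Hochberg over all tested probes, with a threshold of 0.05. The precision is limited by the number of arrays. The procedure was tested on simulated data. Lists use the brightest tested probe of a gene.

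Members and lists were chosen with earlier results of these data known. Named are all members, the related chains, up to 4 partner genes past the threshold in each direction, up to 2 markers per list, and the most similar genes; others are said to be so or stand in a count. The planned test between probes of 1 gene had no member with 2 tested probes. Normexp used median spot signals, since the files hold no mean signal. Alternatives were other background corrections, scalings, filters, variance models and probe summaries, slide and replicate blocks, and each array left out.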

Additional observations from a re-analysis of the deposited data

How the results depend on the processing

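Col6a1, Col6a2, Col9a1, Col9a3 and Col16a1 kept their direction and call under all 20 alternatives, with ranges of -1.47 to -1.19, -1.07 to -0.74, -1.25 to -0.43, -1.45 to -0.93 and -0.93 to -0.67. Col14a1 lost its call with normexp only (-0.23, adjusted p = 0.0617). Col9a2 turned to -0.20 and -0.15 with the detected and all spike-in probes and to -0.0073 in the deposited table. It ranged from -0.083 to 0.11 with an array left out. With the slide as a block it passed at 0.27, so 1 collagen probe was then higher, and it stood at 0.27 within slide 1. Both fits assume that the lone control array of slide 1 varies like the others. For Col9a2 the control arrays spread more widely (log2 SD 0.206) than the miR-29 arrays (0.029). Over all probes, spike-in scaling gave 10163 lower and 3947 higher (detected types) or 4336 higher (all types), against 6205 and 8993. With an array left out, 5053 to 7558 were lower and 7236 to 9689 higher. In the partner and related chain lists together, 2 genes rather than 4 were higher with either spike-in scaling or the slide block, and 2 to 5 with an array left out. Bmp1 turned to -0.032 with detected spike-in types and to -0.49 as the mean of its probes; Col6a4 turned to -0.18 and -0.13 with the spike-in scalings, ranged from -0.090 to 0.21 with an array left out, and passed at 0.35 within slide 1. Col22a1 passed as lower at -0.49 and -0.43 with the spike-in scalings. Of 538 values for 27 other named genes, 492 kept direction and side of the threshold. The cause of these changes was not tested. The replicate block gave 6242 lower and 9127 higher probes and the same calls for the collagens. Same-numbered arrays deviated together at 0.143, 0.0991 and 0.271, each the best match of its array, a hint from the data and not the design. Weak signals (Col9a1, Col14a1, Col20a1, and the markers Elavl3, Elavl4, Myh11 and Cldn11) limit the size of a change that can be read.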
